A study of Mus musculus with 12 samples.

Results

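The microRNA described here is mmu-miR-196a-1-3p, measured in cultured aortic smooth muscle cells of the mouse (primary MASMC) with and without knockdown of OCT4. Its probes were chosen by identifier, as the run ASMM10SMR20MIRNA100004235TV1, ASMM10SMR20MIRNA100004236TV1, ASMM10SMR20MIRNA100004237TV1, ASMM10SMR20MIRNA100004238TV1 and ASMM10SMR20MIRNA100004239TV1, after a loss of signal under the knockdown had been seen on these same arrays. These were 5 of the 9709 miRNA probes on each array. The study's own list of miRNAs assigned only the last 3 of these 5 to mmu-miR-196a-1-3p, and gave no name for the first and the second. The same list assigned another 2 probes, ASMM10SMR20MIRNA100004240TV1 and ASMM10SMR20MIRNA100004241TV1, to the miRNA. All 7 are described. The 5 that the study listed for mmu-miR-196a-1-3p are called the listed probes and are named by their length. The others are called the first unlisted probe (ASMM10SMR20MIRNA100004235TV1) and the second unlisted probe (ASMM10SMR20MIRNA100004236TV1).

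The cells came in 4 groups of 3 arrays each, named for the siRNA and the treatment. They received siRNA against Oct4 (siOCT4) or a non-target pool (siNT) for 48 h in serum-free medium, followed by 24 h of either DMSO vehicle or POVPC at 10 μg/mL. POVPC is an oxidized phospholipid found in atherosclerotic lesions. OCT4, encoded by Pou5f1, is a transcription factor of pluripotent cells. The knockdown was transient. The study reports a qRT-PCR check of it in MASMC given these siRNAs, followed by POVPC. The Oct4 transcript was not analysed here, so how far it was reduced in these samples is not shown. The siNT and siOCT4 cells differed in the siRNA added to them as well as in OCT4, and end labelling takes any RNA with a 3′ end. A change that followed the loss of OCT4 and one that followed the added siRNA cannot be told apart in this design. Nothing in the labels says that the 3 arrays of a group came from separate cultures, so the errors and p-values measure the spread between these samples, which may be technical. Each array read RNA from a whole culture, in which fewer cells that made a miRNA and less of it per cell cannot be told apart. The study's list names no probe of miR-143 or miR-145, the miRNAs best known in smooth muscle, so the cell type was not checked here.

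A miRNA gene is transcribed into a longer RNA that folds into a hairpin, and the hairpin is cut into a duplex of a 5p and a 3p strand. The strand that is loaded into Argonaute guides it to mRNAs, mainly by pairing of its seed, bases 2 to 8 from the 5′ end. The genes of the mir-196 family lie within the Hox clusters, which encode transcription factors of positional identity along the body axis, and the 5p strand is known for directing cleavage of the Hoxb8 mRNA. The Mir196a-1 and Mir196a-2 hairpins yield the same 5p strand, whereas their 3p strands differ in sequence, so a 3p probe can report on 1 gene. In RefSeq (GRCm38.p6), Mir196a-1 is on chromosome 11 between the coding genes Hoxb13 and Hoxb9 and overlaps the gene model Gm51876. The hairpin of 102 bases spans chr11:96265164-96265265 on the plus strand. It is shown because it places the measured strand, in capitals, at hairpin positions 62 to 83, opposite the 5p strand at positions 24 to 45.
Mir196a-1 hairpin: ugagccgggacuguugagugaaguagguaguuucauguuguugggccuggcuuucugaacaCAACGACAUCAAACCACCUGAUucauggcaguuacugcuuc

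The mature strands of the family are shown with their seeds in capitals, since they decide which gene a 3p probe reports on. The seed of mmu-miR-196a-1-3p, at chr11:96265225-96265246, was shared by 0 others of the 1679 mature mouse miRNAs in the RefSeq table. The longest run of bases it had in common with mmu-miR-196a-2-3p was 5, and with mmu-miR-196b-3p 6.
mmu-miR-196a-1-3p: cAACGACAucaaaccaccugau
mmu-miR-196a-5p: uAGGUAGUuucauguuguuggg
mmu-miR-196a-2-3p: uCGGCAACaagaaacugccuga
mmu-miR-196b-3p: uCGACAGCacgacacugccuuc

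The 5 listed probes form a nested ladder on the 3′ end of mmu-miR-196a-1-3p. Each starts with 1 g that has no partner in the miRNA, and then pairs without a gap from base 22 backwards, to base 7 in the probe of 17 bases and to base 3 in the probe of 21 bases. The ladder is shown because it gives the stretch of the miRNA that the 5 probes share. The letters opposite the seed are in capitals and number from 2 to 6.
17-base probe (ASMM10SMR20MIRNA100004240TV1): gatcaggtggtttgaTG
18-base probe (ASMM10SMR20MIRNA100004238TV1): gatcaggtggtttgaTGT
19-base probe (ASMM10SMR20MIRNA100004237TV1): gatcaggtggtttgaTGTC
20-base probe (ASMM10SMR20MIRNA100004239TV1): gatcaggtggtttgaTGTCG
21-base probe (ASMM10SMR20MIRNA100004241TV1): gatcaggtggtttgaTGTCGT
The 5 probes thus read the same stretch of the same RNA and are not independent measurements of it. No sequence was at hand for the unlisted probes.

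Of the 12 arrays, siOCT4-DMSO replicate 3 stood apart. Its median signal before normalization was 24.1, against 5.59 to 8.73 on the other arrays, and 98.6% of its miRNA probes were marked well above background by the scanner software, against 62.4% to 84.9%. No spot was saturated, and none of the 7 probes had an outlier mark. The files name no slide number, so arrays with the same scan date in their headers were taken as 1 slide. By this grouping siOCT4-DMSO replicate 3 shared slide 2 with the siOCT4-POVPC arrays, and the other 8 arrays were on slide 1. Signals below are log2 values after quantile normalization over the 12 arrays, with no length correction, so levels are compared between arrays for 1 probe and not between probes.

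In siNT cells the listed probes were bright. All 30 of their readings, 5 probes on 6 arrays, were well above background, with log2 signals from 7.08 to 10.38 and signals before normalization from 108.5 to 1547. The 20-base probe, which pairs with bases 4 to 22 of the miRNA, stood at 9.87, 9.46 and 10.15 in siNT-DMSO and at 10.38, 9.74 and 9.80 in siNT-POVPC. These 6 values overlapped between the treatments. For the 18-base probe the log2 signals were 9.55, 9.23 and 9.71 in siNT-DMSO and 10.31, 9.68 and 9.34 in siNT-POVPC, again overlapping. Those of the 19-base probe were 8.09, 7.74 and 8.36 in siNT-DMSO and 8.69, 8.62 and 8.71 in siNT-POVPC, where every POVPC array lay above every DMSO array. The 17-base and 21-base probes, which lie outside the run of 5, were high on the same arrays, between 7.08 and 8.21 and between 8.97 and 10.01 over the 6 siNT arrays.

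In siOCT4 cells the same probes were dim, and 14 of their 30 readings were well above background. The signal of the 20-base probe was 3.30, 2.71 and 2.24 in siOCT4-DMSO and 1.72, 1.13 and 2.33 in siOCT4-POVPC. For the 18-base probe it was 3.13, 2.43 and 2.22 in siOCT4-DMSO and 1.97, 1.45 and 2.31 in siOCT4-POVPC. For the 19-base probe it was 3.37, 2.05 and 2.38 in siOCT4-DMSO and 2.75, 2.14 and 1.46 in siOCT4-POVPC. In each of these 3 probes the highest siOCT4 array lay below the lowest siNT array. The signals of the 17-base probe lay between 2.09 and 2.79 on all 6 siOCT4 arrays. The longest, the 21-base probe, read 6.04, 3.55 and 2.47 in siOCT4-DMSO and 2.91, 2.77 and 2.19 in siOCT4-POVPC, so siOCT4-DMSO replicate 1 stood above the other siOCT4 arrays.

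**Figure D1:**
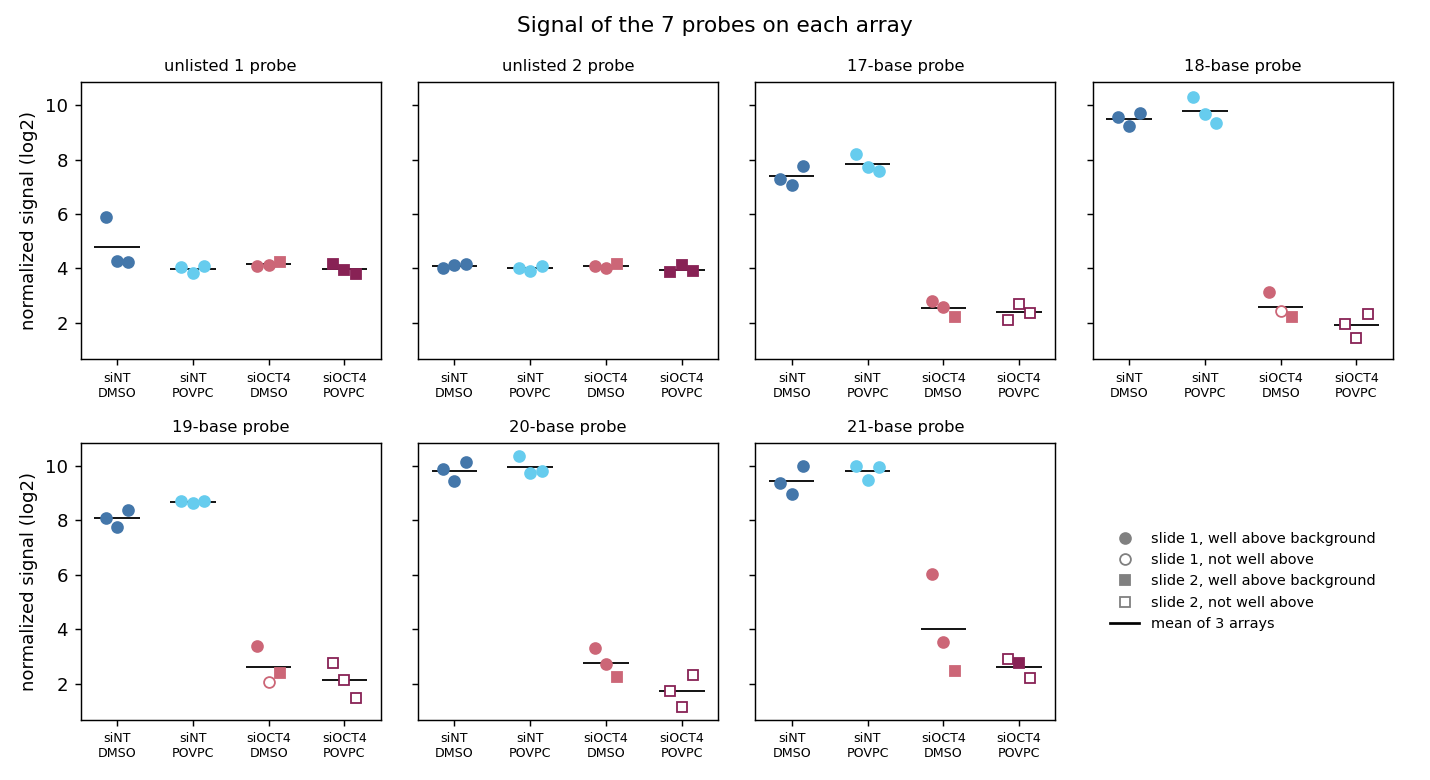
Log2 normalized signal (vertical axis) of each of the 7 probes on the 12 arrays, by group (horizontal axis), with circles for slide 1, squares for slide 2, open symbols where a reading was not well above background and a bar for the mean of 3 arrays. The listed probes, named by length, sit between 7.08 and 10.38 on the siNT arrays and between 1.13 and 6.04 on the siOCT4 arrays, while the unlisted probes show no such step.

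The name under which the probes were grouped speaks of a loss, and the marks of the scanner software show how far it went. In siOCT4-POVPC the 17-, 18-, 19- and 20-base probes were well above background on 0 of 3 arrays, and the 21-base probe on 1 of 3. In siOCT4-DMSO the 17-, 20- and 21-base probes carried the mark on 3 of 3 arrays, and the 18- and 19-base probes on 2 of 3. One of these siOCT4-DMSO arrays was the bright replicate 3, where almost every miRNA probe was marked as well above background. Replicate 1 carried the mark for all 5 listed probes too. Marks also differed over the whole array, at 79.0% to 98.6% of miRNA probes in siOCT4-DMSO and 62.4% to 71.9% in siOCT4-POVPC. The signal was low but mostly still detected in siOCT4-DMSO, and not well above background for 4 of the 5 listed probes in siOCT4-POVPC. The difference between the siOCT4 groups in these marks was not tested.

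Of the 9695 miRNA probes with a reading on all 12 arrays, 85 (0.877%) were well above background on all 6 siNT arrays and on 0 of the siOCT4-POVPC arrays, a pattern chosen after the values were seen. They held 4 of the 5 listed probes and 22 probes with a name in all. The 10 of the 85 that were brightest in siNT-POVPC were these 4 and probes of mmu-miR-379-3p, mmu-miR-669l-3p, mmu-miR-299a-3p, mmu-miR-449a-3p, mmu-miR-206-5p and mmu-miR-196a-2-3p. Dimmer probes of the pattern are not named here. The stricter pattern of 6 siNT and 0 siOCT4 arrays was found in 0 probes (0%). On the bright siOCT4-DMSO replicate 3, 98.6% of miRNA probes carried the mark, so few probes could have met it. The counts of this pattern and of its mirror image are therefore not comparable. Its mirror image, 0 siNT and 6 siOCT4 arrays, was found in 3 probes (0.0309%), 2 of mmu-miR-485-3p and 1 of mmu-miR-3076-5p. The signals of the mmu-miR-485-3p probe with the identifier ending 1177 ran from 1.28 to 2.28 on the siNT arrays and from 6.81 to 7.49 on the siOCT4 arrays.

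The comparison of siOCT4-DMSO vs. siNT-DMSO groups addressed the effect of the knockdown under vehicle. Because the probes were chosen on this contrast, its values are a description and no test is given. All siOCT4-DMSO arrays lay below all siNT-DMSO arrays for 5 of the 7 probes, the listed ones, as they did for 6.76% of the 8615 miRNA probes tested. The mean of the 20-base probe was 9.82 ± 0.35 (SD, n = 3) with siNT and 2.75 ± 0.53 with siOCT4, a log2 difference of −7.07 or 135-fold. For the 18-base probe the means were 9.49 ± 0.25 and 2.60 ± 0.48, a difference of −6.90. For the 19-base probe they were 8.07 ± 0.31 and 2.60 ± 0.69, a difference of −5.47. The difference was −4.85 for the 17-base probe and −5.43 for the 21-base probe. The median difference of the 5 listed probes was −5.47, beside 0.04 over all 8615 tested probes, and they were the 5 largest falls among them. Within slide 1, which leaves out the bright array, the differences were −6.82 for the 20-base probe, −6.71 for the 18-base, −5.36 for the 19-base, −4.69 for the 17-base and −4.66 for the 21-base probe. On the linear scale, the 21-base probe was 25.3-fold lower within slide 1, 43.2-fold lower over all 6 arrays and 87.2-fold lower without siOCT4-DMSO replicate 1, the array on which it was highest.

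A step of this kind was present under POVPC too. For the same 5 of the 7 probes all siOCT4-POVPC arrays lay below all siNT-POVPC arrays, as they did for 8.67% of 8614 tested probes, and here too no test is given, since the result was known when the probes were chosen. For a probe with no siOCT4-POVPC reading above background, the size is a bound. It sets the siNT-POVPC mean against the lowest signal that counted as well above background on each siOCT4-POVPC array. The 20-base probe, at 9.97 ± 0.35 (SD, n = 3) in siNT-POVPC and 1.73 ± 0.60 in siOCT4-POVPC, was at least 142-fold lower. The 18-base probe, at 9.78 ± 0.49 and 1.91 ± 0.44, was at least 124-fold lower. The bounds were at least 58.0-fold for the 19-base probe and at least 32.4-fold for the 17-base probe. The 21-base probe, measured on 1 of the 3 siOCT4-POVPC arrays, went from 9.82 ± 0.28 to 2.63 ± 0.38, a log2 difference of −7.19. With 4 of the 5 listed probes at their bounds, the median log2 difference was −6.96 or lower, beside 0.02 over all tested probes. By measured means the listed probes held ranks 1, 2, 3, 4 and 6 among the falls here, so a probe outside the miRNA stood between them. For 4 of the 5 these means come from siOCT4-POVPC readings not above background, so their order is uncertain. In this comparison each group lay on a slide of its own, so slide and group cannot be told apart.

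**Figure D2:**
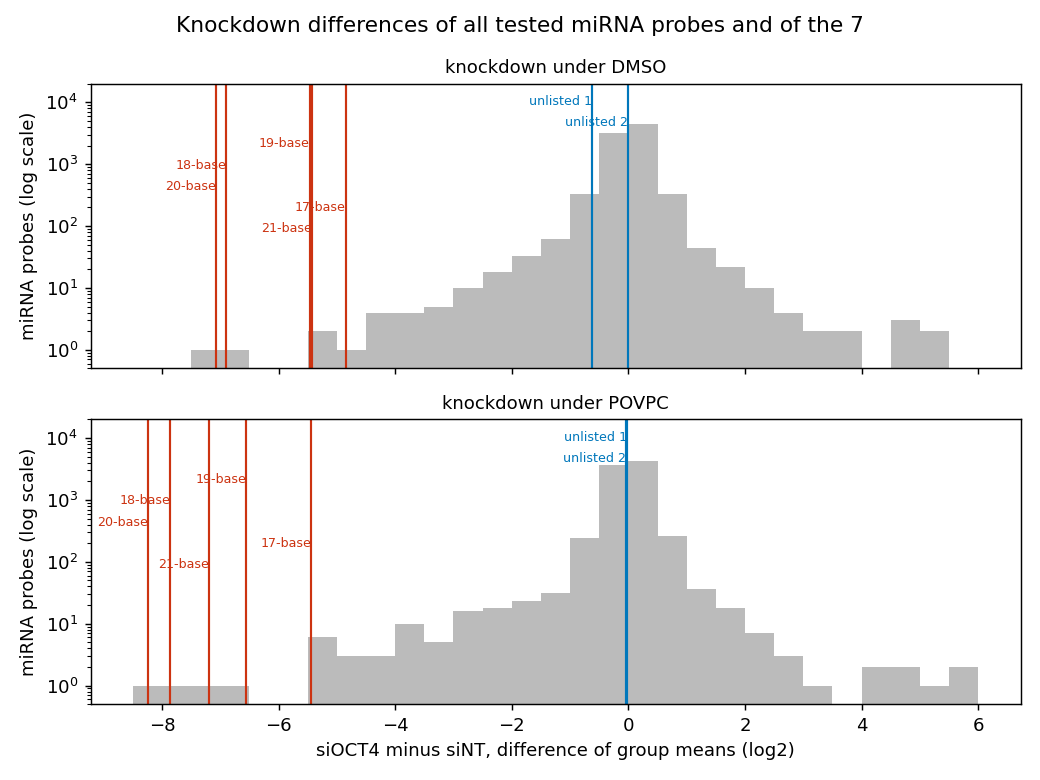
Difference of group means on the log2 scale, siOCT4 minus siNT (horizontal axis), for all tested miRNA probes as grey bars (number of probes, log scale on the vertical axis) and for the 7 probes as lines, red for the listed probes and blue for the unlisted ones. The measured means of the listed probes differ by −4.85 to −7.07 under DMSO and by −5.44 to −8.24 under POVPC, where 4 of the 5 are not above background in siOCT4 cells, at the left edge of the distribution, and the other 2 lie near 0.

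The unlisted probes went against the name under which they were grouped. Both were well above background on all 12 arrays and dim on each. The signal of the second unlisted probe ran from 3.86 to 4.16 over the 12 arrays, with group means of 4.09 ± 0.08 (SD, n = 3) in siNT-DMSO, 4.00 ± 0.11 in siNT-POVPC, 4.08 ± 0.07 in siOCT4-DMSO and 3.96 ± 0.13 in siOCT4-POVPC. Its groups overlapped in both knockdown comparisons, with log2 differences of −0.01 under DMSO and −0.04 under POVPC. For the first unlisted probe the siNT-DMSO arrays read 5.87, 4.29 and 4.22, and the other 9 arrays lay between 3.79 and 4.25. The high reading of siNT-DMSO replicate 1 set the mean difference of −0.63 in the DMSO comparison, in which the groups overlapped. Under POVPC the difference was −0.02. Neither probe is listed for mmu-miR-196a-1-3p, and neither showed the step of the listed probes.

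The siNT-POVPC vs. siNT-DMSO comparison asked what POVPC changed in cells that kept OCT4. The probes were not chosen on it, although the siNT-DMSO arrays also entered the contrast that chose them. With limma, 0 of the 7 probes were called at an adjusted p under 0.05 and a change of at least 1.5-fold, and 0.221% of 8609 tested probes were. The lowest adjusted p was that of the 19-base probe, whose signal was higher by 0.61 on the log2 scale after POVPC (SE 0.17, 95% interval 0.20 to 1.01, adjusted p = 0.353), or 1.52-fold. It was also the only listed probe whose POVPC arrays all lay above the DMSO arrays, an order seen in 7.64% of tested probes. The log2 differences of the other listed probes were 0.15 for the 20-base probe (95% interval −0.41 to 0.70), 0.28 for the 18-base (−0.33 to 0.89), 0.37 for the 21-base (−0.28 to 1.01) and 0.46 for the 17-base probe (−0.09 to 1.01). The unlisted probes gave −0.81 (−1.79 to 0.17), for the first, and −0.09 (−0.38 to 0.20), for the second. The 5 intervals all left room for a rise of over 1.5-fold, so at 3 arrays a group these data do not settle whether POVPC raised the miRNA in siNT cells. All 5 values were above 0 with every array in, with a median of 0.37 beside −0.0015 over all tested probes, but the probes share a target and are not independent. The 20-base value turned to −0.034 without siNT-DMSO replicate 2 and to −0.053 without siNT-POVPC replicate 1. Without siNT-POVPC replicate 1 the 18-base value went to 0.014, and without siNT-DMSO replicate 2 the 21-base value went to 0.12. All 6 siNT arrays were on slide 1. At an unadjusted p under 0.05 there was 1 of the 7 probes, against 779 of all 8609.

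**Figure D3:**
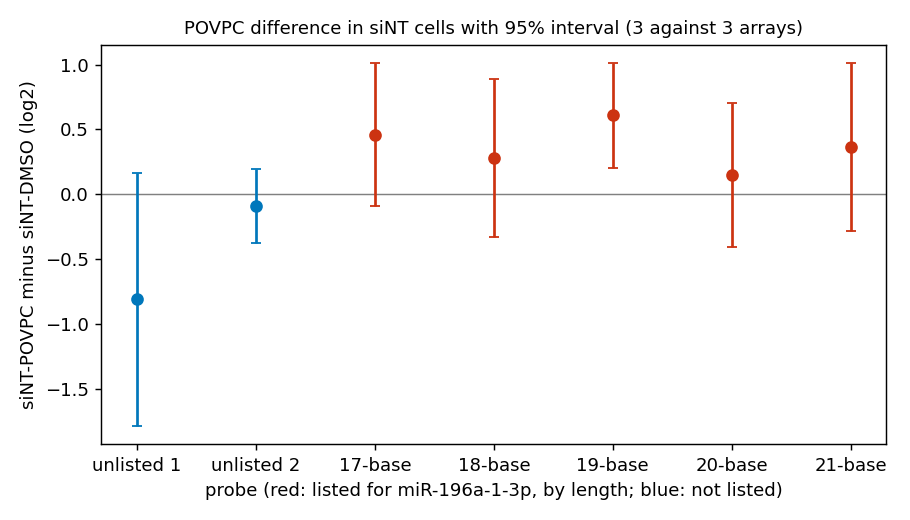
Difference siNT-POVPC minus siNT-DMSO on the log2 scale (vertical axis) for each of the 7 probes (horizontal axis), as the limma estimate with its 95% interval from 3 against 3 arrays. The listed probes in red lie between 0.15 and 0.61, only the interval of the 19-base probe stays above 0, and the estimate for the first unlisted probe rests on 1 high siNT-DMSO array.

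The siOCT4-POVPC vs. siOCT4-DMSO comparison asked the same in OCT4-deficient cells. By limma 0 of the 7 probes were called, and 0% of 8620 tested probes. At an unadjusted p under 0.05 there were 2 of the 7 probes, the 18- and 20-base ones, and 1096 of all tested. Nothing is read from these 2, since all their siOCT4-POVPC readings failed the background mark. The 18- and 19-base probes had the mark on 2 of the 6 siOCT4 arrays, and so were tested here only through their siNT readings. No size or p is given for the 17-, 18-, 19- and 20-base probes in this comparison, for the same reason and because the bound did not reach 1-fold. For the 21-base probe the log2 difference was −1.39 (SE 0.76, 95% interval −3.14 to 0.35, adjusted p = 0.484), with a spread in siOCT4-DMSO of 1.83 (SD), replicate 1 being the high array. With slide as a term in the fit, so that the siOCT4-POVPC arrays were set against the bright replicate 3 alone, this difference was 0.16, and without siOCT4-DMSO replicate 1 it was −0.38. The unlisted probes gave −0.20 (95% interval −0.55 to 0.15), for the first, and −0.12 (−0.45 to 0.21), for the second.

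The listed probes shared 1 end of the order of arrays in each kind of cell and not the other. Over the 6 siNT arrays, siNT-DMSO replicate 2 was the lowest for all 5 listed probes, as it was for 21.2% of all 8609 probes with a value on every array, while the highest array was siNT-POVPC replicate 1 for 3 of them, and siNT-DMSO replicate 3 and siNT-POVPC replicate 3 for 1 each. Over the 6 siOCT4 arrays, siOCT4-DMSO replicate 1 was the highest for all 5, as it was for 12.8% of all, while the lowest was split over the 3 siOCT4-POVPC arrays. The bright siOCT4-DMSO replicate 3 was the highest for 0 of the 5 and for 30.5% of all. Only 14 of the 30 siOCT4 readings of the listed probes were well above background, so the low end of that order rests on background readings. The 5 probes read the same stretch of RNA, so an order shared by all 5 is not 5 independent observations.

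Next, the miRNA probes whose pattern over the 12 arrays was most like that of the 18-, 19- and 20-base probes were sought. Likeness was the root mean square difference between log2 profiles centred on their own means, over 8609 probes. The other listed probes stood at 0.73 (21-base) and 1.00 (17-base), and the unlisted probes at 3.41 and 3.52. Outside the 7, the closest were a probe of mmu-miR-379-3p at 1.11 and a probe of mmu-miR-6903-5p at 1.13. They were followed by a probe of mmu-miR-669c-3p at 1.29 and by 2 probes of mmu-miR-5615-3p at 1.35 and 1.37. Each of these 5 probes was high on the 6 siNT arrays and low on the 6 siOCT4 arrays without overlap. The mmu-miR-379-3p probe ran from 7.12 to 8.26 on the siNT arrays and from 2.43 to 4.01 on the siOCT4 arrays. That of mmu-miR-669c-3p ran from 8.58 to 9.56 on the siNT arrays and from 4.09 to 5.12 on the siOCT4 arrays. In each of the 5 probes siOCT4-DMSO replicate 1 was the highest of the siOCT4 arrays. These features follow in large part from choosing the probes by likeness on the same arrays. The mmu-miR-379-3p probe was well above background on 2 of 3 siOCT4-DMSO and 0 of 3 siOCT4-POVPC arrays, and the other 4 probes were so on all 12 arrays.

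**Figure D4:**
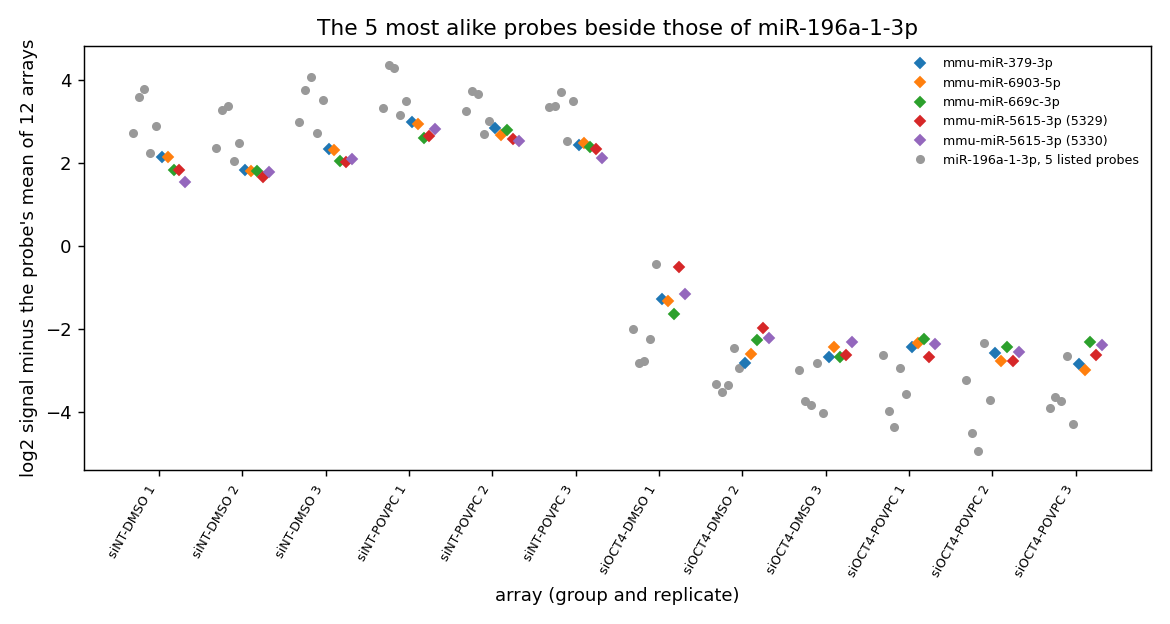
Log2 signal minus the probe's own mean over the 12 arrays (vertical axis) on each array (horizontal axis), for the 5 listed probes of miR-196a-1-3p in grey and the 5 most alike probes in colour, with small sideways offsets so that points do not cover each other. All 10 probes are above their mean on the 6 siNT arrays and below it on the 6 siOCT4 arrays, and all 10 are highest among the siOCT4 arrays on siOCT4-DMSO replicate 1.

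The mature sequences of the most alike miRNAs are printed beside mmu-miR-196a-1-3p to show how far their letters overlap, again with seeds in capitals.
mmu-miR-196a-1-3p: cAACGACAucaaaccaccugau
mmu-miR-379-3p: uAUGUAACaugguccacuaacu
mmu-miR-6903-5p: uUGGGAAAagcaguacuuacca
mmu-miR-5615-3p: uGUCUCAGaaaacaaccaagga
The longest run of bases in common with mmu-miR-196a-1-3p was 4 for mmu-miR-379-3p, 4 for mmu-miR-6903-5p, 3 for mmu-miR-669c-3p and 5 for mmu-miR-5615-3p. Over the 109 other miRNAs of the study's list the run had a median of 4 and a range of 3 to 6. The runs of the alike miRNAs lay within this range. Whether shared sequence bears on the alike profiles was not tested. All of these miRNAs carry a name because the study had listed them as changed on these arrays.

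The other miRNAs of the Hox clusters that the study's list names were mmu-miR-196a-2-3p, from the Hoxc cluster, and both arms of mmu-miR-10a, whose gene lies in the Hoxb cluster as Mir196a-1 does. Of their 13 probes, 0 were called in either POVPC comparison. Among all tested probes 0.221% of 8609 were called in siNT cells and 0% of 8620 in siOCT4 cells. All siOCT4 arrays lay below all siNT arrays for 7 of the 13 under DMSO and for 7 under POVPC, against 6.76% and 8.67% of all tested probes. These were 2 of the 3 probes of mmu-miR-196a-2-3p and the 5 probes of mmu-miR-10a-3p in both, whereas the 5 probes of mmu-miR-10a-5p overlapped between the siRNAs under DMSO. Under POVPC 4 of these 5 lay the other way, with all siOCT4 arrays above all siNT arrays, as 10% of tested probes did. The study listed these miRNAs on these arrays, so the counts are a description. The mmu-miR-196a-2-3p probe with the identifier ending 2030 had means of 4.31 ± 0.19 (SD, n = 3) with siNT-DMSO and 1.85 ± 0.74 with siOCT4-DMSO, measured on 2 of 3 arrays, a log2 difference of −2.46. In siOCT4-POVPC it was well above background on 0 of 3 arrays, and at least 4.62-fold lower than in siNT-POVPC, where it stood at 5.03 ± 0.12. The probe ending 2034 was well above background on 1 of 3 siNT-DMSO and 0 of 3 siNT-POVPC arrays, and showed no such order. For mmu-miR-10a-3p the knockdown differences were between −0.81 and −0.59 under DMSO and between −0.31 and −0.24 under POVPC. Those of mmu-miR-10a-5p were between −0.14 and 0.05 under DMSO and between 0.09 and 0.48 under POVPC. Under DMSO the measured differences of the listed mmu-miR-196a-1-3p probes, at −4.85 or below, were larger than that of any of these 13. The size of a fall is limited by the level without knockdown, however. The 3 probes of mmu-miR-196a-2-3p had siNT-DMSO means of 4.31, 2.73 and 2.02 and could not have fallen as far. Their sizes are therefore not comparable with those of the listed probes.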

How the data were processed

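Total RNA was dephosphorylated, labelled at its 3′ ends with Cy3 without amplification, hybridized to 1-colour Arraystar mouse small RNA arrays and read with Agilent Feature Extraction 11.0.1.1, per the labels. Per spot, the deposited scanner files give intensity after background subtraction, in which dim spots carry a surrogate value, and a mark for signal well above background. They were not normalized between arrays. A deposited table of log2 values, quantile-normalized by the authors, served as an alternative. The array design is annotated to an older mouse build than the RefSeq tables, from which miRNA sequences and positions were taken by name.

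Processed signals were quantile-normalized over the 12 arrays, raised to a floor of 1 where lower, and log2-transformed. Outlier spots (14 to 23 per array) and control spots were left out. Each of the 7 probes had 1 spot. Quantile normalization assumes alike signal distributions, which was not tested, and folds of dim probes depend on it. Tests covered miRNA probes with the above-background mark on 3 or more of the 12 arrays, and probes without a reading on an array of a comparison were dropped from it. R 4.3.3 and limma 3.58.1 fitted each comparison to the 6 arrays of its groups (two-sided, moderated by eBayes), with Benjamini-Hochberg adjustment over all tested miRNA probes and the 1.5-fold threshold of the study's methods. The script was tested on simulated data. No permutation test was run, since 3 against 3 arrays cannot give an exact p below 0.1. The number of arrays limits the precision.

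Groups and replicate numbers came from the sample titles, which match the source names. The free-text description of 9 of the 12 samples instead repeats non-target siRNA and DMSO, and was not followed. Names of 520 probes came from the study's lists of miRNAs. The members and lists were chosen with earlier results of these data known. Named probes were the members, the probes listed for the miRNA, those of 3 other Hox-cluster miRNAs, the 5 most alike profiles and some sharing the flags. Of the last, those marked in siNT and not in siOCT4-POVPC were named from the 10 brightest in siNT-POVPC. Same-numbered arrays did not deviate together throughout (correlations between −0.24 and 0.42), so replicate numbers were not used as a block in the main fits. Replicates 2 and 3 did so in part, for POVPC in siNT cells (0.42 and 0.33) and for the knockdown under DMSO (0.35 and 0.28). Alternatives were other normalizations and background correction (normexp, offset 50, on the median spot signal, since no mean signal was used here), the series table, a floor of 8, other filters, fits and thresholds, and leaving out each array.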

Additional observations from a re-analysis of the deposited data

How the results depend on the processing

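The direction of the knockdown differences held for the 5 listed probes under every normalization, correction, floor, block and left-out array run. The log2 difference ranged from −7.34 to −1.31 under DMSO and from −8.96 to −1.59 under POVPC (measured means, of which 4 of the 5 rest on siOCT4-POVPC readings not above background), and the smallest sizes came from normexp, whose added offset of 50 compresses dim signals by construction. The number of the 7 probes with all siOCT4 arrays below all siNT arrays was 5 or 6 under DMSO. Under POVPC it was 5 to 7. The count over all tested probes moved as well. The 7 came without normalization, where 4508 of 8614 tested probes lay in this order, against 747 in the main setting. The 6 came only with 1 array left out. Within slide 1, for instance, 1226 of 8615 tested probes lay in this order, against 582 in the main setting. For POVPC in siNT cells the number called moved from 0 to 1 at an unadjusted p, where 211 of all 8609 tested probes were called. By an unpaired t-test, unadjusted, it was also 1, beside 157 of all 8609. For POVPC in siOCT4 cells it moved from 0 to 2 at an unadjusted p, beside 442 of all 8620. All these counts kept the 1.5-fold threshold. With the replicate number as a block, 0 of the 7 probes were called in both POVPC comparisons, so this pairing changed no call among them. Over all tested probes it gave 4 of 8609 in siNT cells and 0 of 8620 in siOCT4 cells. Leaving out any 1 array left 0 of the 7 called in both POVPC comparisons. Over all tested probes at most 4 were then called in siNT cells and at most 1 in siOCT4 cells. Some differences that were not called turned their sign. That of the second unlisted probe was 0.046 without normalization in siNT cells and 0.0014 under normexp in siOCT4 cells. That of the 20-base probe in siNT cells ran from −0.053 to 0.31 with 1 array left out, and was below 0 without siNT-DMSO replicate 2 (−0.034) and without siNT-POVPC replicate 1. In siOCT4 cells the measured means of the 17-base probe, which have no reading above background with POVPC and so no interpretable size or sign, gave 0.0068 under normexp, 0.16 with slide as a block and −0.30 to 0.010 with 1 array left out, above 0 without siOCT4-POVPC replicate 1, and the 21-base probe moved from −1.39 to 0.16 with slide as a block. The cause was not tested. The filter on probes above background on all 12 arrays left 2 of the 7 probes, the unlisted ones. At a floor of 8, 1 of the POVPC differences in siOCT4 cells had both groups at the floor and no value.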
